A study of Homo sapiens with 4 samples.

Results

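Chromosome 13 and its 2 gene deserts were followed across 4 Hi-C contact maps of IMR90 cells, which are normal human diploid lung fibroblasts. All 482 bins of chromosome 13 in the deposited bin list were taken, out of 14310 bins on the 22 autosomes and X, with the scores of the pairs among them. The bins used in the means were about 200 kb long in hg19. The chromosome was chosen by measured values: earlier work on these maps had found a bin of its first desert among the bins with the largest gain of distal contact in senescence. Contacts of the deserts in that comparison are therefore given as a description, and no test was made of any difference.

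Human chromosome 13 has a short arm of repeats, from which no bin could be used here, and a long arm that holds its genes. Gene deserts are long stretches with few or no protein-coding genes, and are AT-rich, late-replicating and often found at the nuclear lamina. In Hi-C maps, chromatin falls into an active (A) and an inactive (B) compartment, and stretches of the same compartment touch each other over long distances. In senescence caused by oncogenic RAS, fibroblasts can gather B chromatin into dense foci. HMGA1, a chromatin protein whose AT-hooks bind the minor groove of AT-rich DNA, is a component of those foci.

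In Hi-C, fixed chromatin is cut, here with HindIII, and DNA ends that are neighbours in the nucleus are ligated and sequenced as pairs. The cells of the series carried ER:HRAS G12V in the vector pLNCX2, a RAS protein held inactive until 4OHT is added, and pMSCV miR shHMGA1, a hairpin against HMGA1. They were grown at physiological oxygen. These files hold no RNA or protein values, so the level of HMGA1 was not checked. The Grow-shA1 group had no 4OHT and the OIS-shA1 group, named RIS in the labels, had 100 nM 4OHT for 6 days. Each shA1 map pools the 2 samples of its group. The Grow and OIS maps were made without this hairpin in an earlier experiment of the laboratory, so the hairpin and the data set cannot be told apart in a comparison of a shA1 map with a map that lacks it. There was 1 map per condition. No spread between replicates was available, and the SD given with a difference is that over bins, which are neighbours on 1 chromosome and not replicates.

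The deposited score of a pair is its balanced contact relative to the mean at the same distance. Values have both signs, and the base of the scale is not given in the sources used here, so differences are in score units and not folds. On chromosome 13 the Grow map listed 111407 pairs, Grow-shA1 108676, OIS 104092 and OIS-shA1 104048. Reads per pair are unknown. A bin was kept where at least 50% of its chromosome's bins had a listed pair with it in every map, which left 478 bins of chromosome 13 and 13567 in all. A pair was distal where its bins were over 2 Mb apart and local otherwise, and means were taken over pairs listed in all 4 maps.

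The long arm was divided by bin midpoints into a proximal end (before 53 Mb, 170 kept bins), a first desert (53 to 72 Mb, 95 bins), a stretch between the deserts (72 to 80 Mb, 40 bins), a second desert (80 to 95 Mb, 75 bins) and a distal end (from 95 Mb, 98 kept bins). The deserts held 1.11 and 0.467 protein-coding gene starts per Mb, the proximal end 5.44 and the distal end 4.09. In the first desert 81 of 95 bins held no such start, and in the second 68 of 75. Mean GC content was 35.3% ± 1.91 (SD over bins) in the first desert and 35.4% ± 1.36 in the second. It was 40.4% ± 2.34 in the proximal end and 41.0% ± 4.26 in the distal end. Both deserts and both ends had similar densities of HindIII sites, with means from 28.1 to 31.5 per 100 kb. Over all 23 chromosomes, chromosome 13 had the fewest protein-coding starts per Mb of kept bins, at 3.32 against a median of 5.60.

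The composition of these stretches can be read from the reference sequence (GRCh37, plus strand). The first line shows the left edge of the bin of the first desert with the largest gain of contact, with the HindIII site that sets it in capitals. The other 4 show 180 bases at the middle of a bin, a place fixed by position, and capitals there mark runs of at least 8 bases that are only A or T. They come from the bin with the largest gain in each desert and from the bin with the largest loss among the listed genes of each end (see the gene lists further on).
Edge of the first-desert bin, chr13:63399946-63399985: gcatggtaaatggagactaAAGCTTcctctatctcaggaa
First-desert bin, chr13:63499792-63499971: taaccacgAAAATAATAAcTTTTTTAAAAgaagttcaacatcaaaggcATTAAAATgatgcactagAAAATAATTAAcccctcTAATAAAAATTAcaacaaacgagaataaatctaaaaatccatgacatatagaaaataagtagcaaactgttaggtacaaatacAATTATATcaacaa
Second-desert bin, chr13:83699443-83699622: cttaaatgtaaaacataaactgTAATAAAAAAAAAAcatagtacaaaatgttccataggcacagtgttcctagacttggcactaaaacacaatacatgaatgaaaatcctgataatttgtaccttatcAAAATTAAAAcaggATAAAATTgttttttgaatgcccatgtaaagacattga
Proximal-end bin with TNFSF11, chr13:43099557-43099736: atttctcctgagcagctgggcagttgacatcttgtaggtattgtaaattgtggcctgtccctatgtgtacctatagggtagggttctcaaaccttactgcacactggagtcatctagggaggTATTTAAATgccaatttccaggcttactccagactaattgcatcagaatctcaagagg
Distal-end bin with LIG4, chr13:108901792-108901971: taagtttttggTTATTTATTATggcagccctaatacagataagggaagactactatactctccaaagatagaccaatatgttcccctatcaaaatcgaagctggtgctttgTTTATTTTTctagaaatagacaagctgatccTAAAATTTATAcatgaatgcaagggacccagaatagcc

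The desert windows held 6 and 3 such runs, and the windows of the ends 1 and 3. A window of 180 bases is a small sample of its bin, so the count over whole bins carries the comparison. Runs of A and T covered 13.02% ± 1.90 (SD over bins) of the first desert and 12.9% ± 1.72 of the second, against 9.09% ± 1.59 of the proximal end and 8.75% ± 2.40 of the distal end. The longest run of a bin differed little, with medians of 57 bases in each desert and of 52 and 54 bases in the ends. All these windows lie between genes of the annotation, with no exon or intron over them, and no protein-coding gene overlaps the 2 desert bins.

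**Figure D1:**
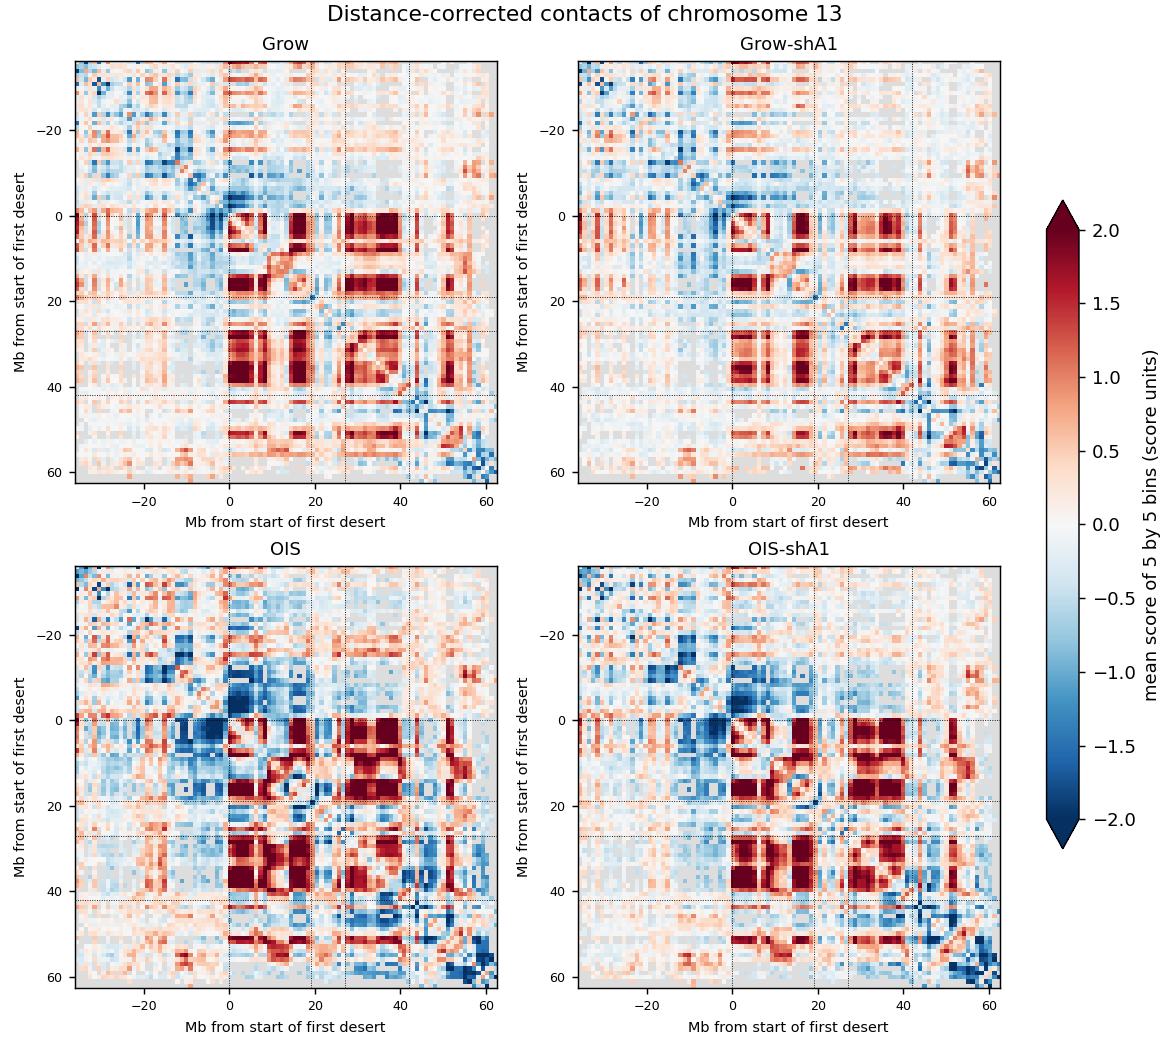
Mean score of blocks of 5 by 5 bins of chromosome 13 in the 4 maps, with both axes as Mb from the start of the first desert and dotted lines near the edges of the deserts. Blocks are drawn evenly spaced, so their places on the axes are approximate. Grey blocks had under 10 pairs listed in all maps. Blocks where the first desert meets the second are mostly red, with class means of 1.07 in Grow, 0.726 in Grow-shA1, 1.40 in OIS and 1.29 in OIS-shA1.

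The deserts touched each other more than any other pair of segments did, in all 4 maps. Distal pairs of the first with the second desert, which lie 8.20 to 41.8 Mb apart, had a mean score of 1.07 in Grow, 0.726 in Grow-shA1, 1.40 in OIS and 1.29 in OIS-shA1 (7025 pairs, 170 bins). The OIS map was the highest and the Grow-shA1 map the lowest. Pairs within the first desert came next in OIS-shA1, at 0.949, and had 0.705 in Grow, 0.525 in Grow-shA1 and 0.659 in OIS. Pairs within the second desert had 0.775 in Grow, 0.524 in Grow-shA1, 0.691 in OIS and 0.898 in OIS-shA1. In each class of desert pairs, OIS-shA1 was above both growing maps and Grow-shA1 was below all others.

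Contacts of a desert with the gene-rich end beside it ran the other way. The first desert with the proximal end had -0.0759 in Grow, -0.0317 in Grow-shA1, -0.398 in OIS and -0.276 in OIS-shA1. The second desert with the distal end had 0.338 in Grow, 0.416 in Grow-shA1, -0.205 in OIS and 0.00137 in OIS-shA1. In both, the 2 growing maps were above the 2 RAS maps. The first desert with the distal end lay in a narrower range, from 0.235 in OIS to 0.344 in Grow, and the second desert with the proximal end from -0.130 in OIS-shA1 to 0.0379 in Grow. The 2 ends met each other at 0.0941 in Grow, 0.0469 in Grow-shA1, 0.184 in OIS and 0.135 in OIS-shA1.

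**Figure D2:**
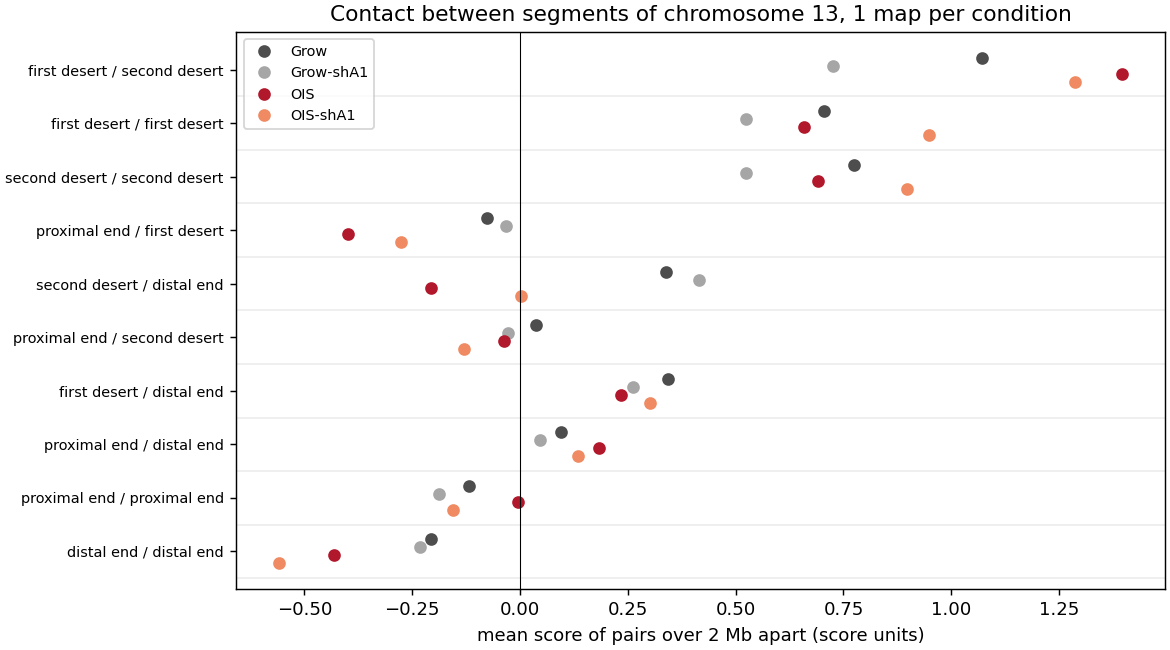
Mean score of distal pairs (horizontal axis, score units) for 10 pairs of segments of chromosome 13 (rows), with 1 point per map. The 4 points of the first with the second desert lie from 0.726 to 1.40, above the points of every class that joins a desert to an end.

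RAS was first compared without the hairpin, as OIS minus Grow. The desert pair was higher in OIS by 0.326 ± 0.295 (SD over 170 bins), and the mean over a bin's pairs was higher in 152 of the 170 bins. The first desert with the proximal end was lower, with a difference of -0.322 ± 0.273 (265 bins, 33 of them higher). The second desert with the distal end was lower, with -0.543 ± 0.321 (173 bins, 13 higher). Pairs listed in all maps made up 98.6% of the possible pairs between the deserts, but 79.5% of those of the first desert with the proximal end and 83.4% of those of the second with the distal end. The OIS map itself listed 86.3% and 87.7% of these last 2 classes and the Grow map 98.4% and 98.9%. A pair that OIS did not list had no value, and the part of missing pairs in these differences was not tested beyond counting them as 0, which kept both differences below 0.

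Within a desert the difference depended on distance. At 2 Mb or less, OIS was lower than Grow by a difference of -0.230 ± 0.219 in the first desert (95 bins, 16 higher) and of -0.458 ± 0.221 in the second (75 bins, 2 higher). Scores of these local pairs in the second desert were 0.519 in Grow, 0.416 in Grow-shA1, 0.0615 in OIS and 0.332 in OIS-shA1, so that OIS stood apart below the other maps. At 6 to 8 Mb the sign was the opposite, with 0.131 in the first desert and 0.229 in the second, and at 8 to 10 Mb the deserts parted, with -0.149 and 0.201. Over all distal pairs within a desert the differences were -0.0459 ± 0.229 and -0.0838 ± 0.238, both smaller than the SD over bins. The desert pair gained most at 18 to 20 Mb, where the difference was 0.620. Its nearest pairs, at 8 to 10 Mb, had -0.543 over 46 pairs, and these join the facing edges of the deserts.

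**Figure D3:**
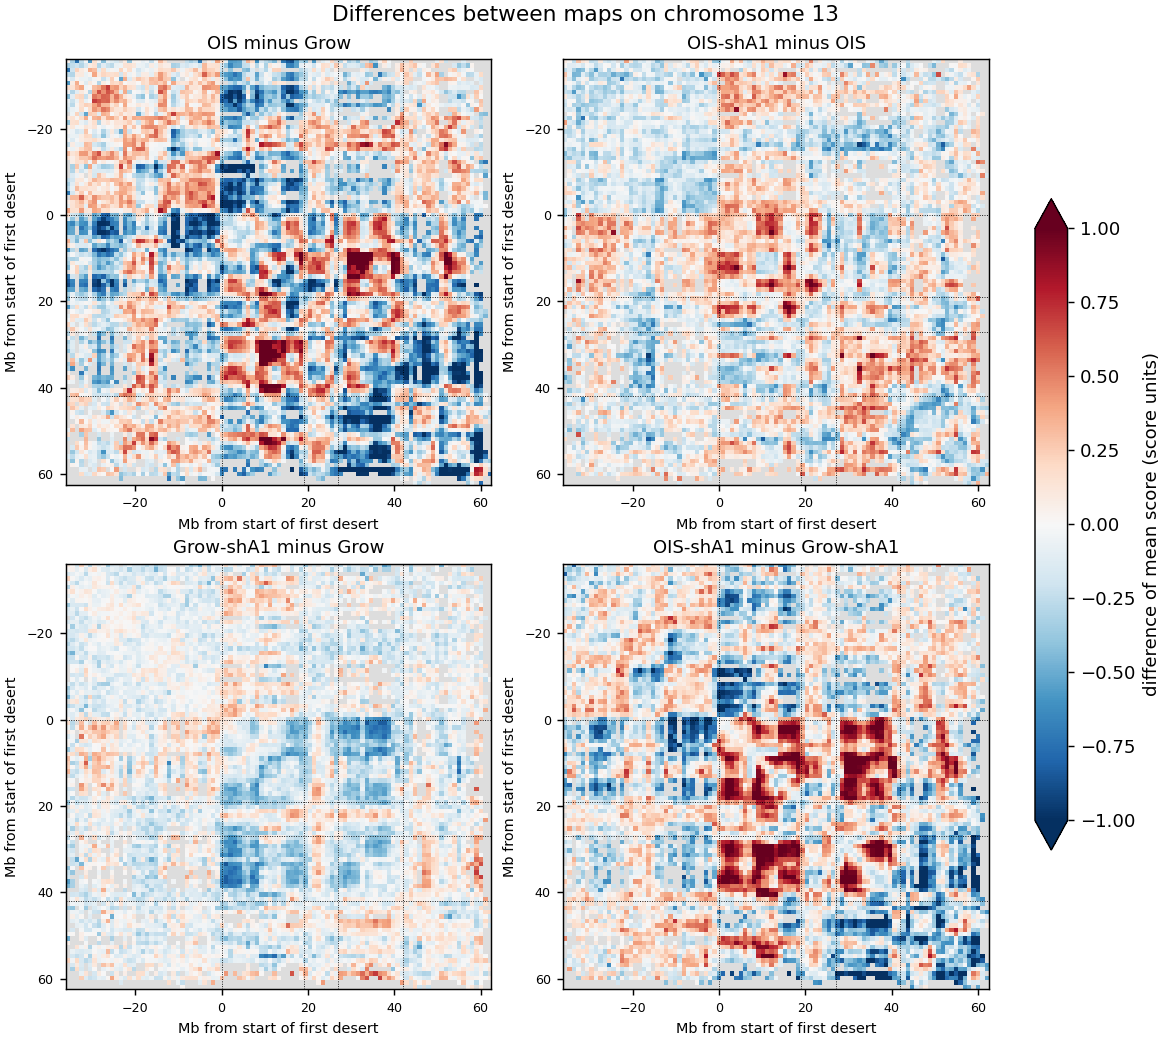
Differences of mean score between maps for blocks of 5 by 5 bins of chromosome 13, with both axes as Mb from the start of the first desert and dotted lines near the edges of the deserts. Blocks are drawn evenly spaced, so their places on the axes are approximate. Blocks where the deserts meet are red on average in OIS minus Grow (0.326), blue in Grow-shA1 minus Grow (-0.345) and most red in OIS-shA1 minus Grow-shA1 (0.562).

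The OIS-shA1 map was compared with the earlier OIS map as OIS-shA1 minus OIS. Hairpin and data set cannot be told apart in this difference. The desert pair was lower by a difference of -0.109 ± 0.134, with 31 of 170 bins higher, and the size was under the SD over bins. Pairs within each desert were higher, by 0.290 ± 0.134 in the first (93 of 95 bins) and by 0.207 ± 0.170 in the second (67 of 75 bins). The classes that were low in OIS were less low in OIS-shA1, by 0.122 ± 0.158 for the first desert with the proximal end and by 0.207 ± 0.179 for the second with the distal end. Local pairs of the second desert were higher by 0.271 ± 0.188 (66 of 75 bins). In growing cells, Grow-shA1 minus Grow, pairs between and within the deserts were lower. The difference was -0.345 ± 0.144 for the desert pair (0 of 170 bins higher), -0.180 ± 0.116 within the first desert (7 of 95) and -0.251 ± 0.110 within the second (2 of 75). The mean over all distal pairs of the chromosome was 0.169 in Grow, 0.0969 in Grow-shA1, 0.112 in OIS and 0.113 in OIS-shA1, so Grow was the highest map as a whole. Its part in these differences was looked at by centring each map, which kept all 3 Grow-shA1 minus Grow differences below 0.

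RAS with the hairpin present, OIS-shA1 minus Grow-shA1, sets 2 maps of the same data set against each other. The study gives fewer reads for OIS-shA1 than for Grow-shA1, and the part of depth in this comparison was not tested. The desert pair was higher by 0.562 ± 0.279, in 161 of 170 bins. Pairs within the first desert were higher by 0.424 ± 0.244 (88 of 95 bins) and within the second by 0.374 ± 0.237 (68 of 75 bins), where the comparison without the hairpin had values near 0. The interaction is the RAS difference with the hairpin minus that without it. A constant offset between data sets cancels in it, but a difference of scale does not. At 10, 20 and 40 Mb the SD of scores over all chromosomes was 0.944, 0.972 and 0.715 in Grow and 0.971, 0.972 and 0.698 in Grow-shA1. It was 1.13, 1.04 and 0.830 in OIS and 1.07, 0.971 and 0.754 in OIS-shA1. The interaction was 0.236 for the desert pair, 0.470 within the first desert and 0.458 within the second. Contacts with the ends were lower here too, by a difference of -0.244 ± 0.267 for the first desert with the proximal end and of -0.414 ± 0.301 for the second with the distal end. A single summary, the mean of the desert-desert and end-end scores minus the desert-end score, was 0.328 in Grow, 0.159 in Grow-shA1, 0.696 in OIS and 0.595 in OIS-shA1. It was higher with RAS by 0.369 without and by 0.436 with the hairpin. The end-end part of this summary joins unlike changes. In OIS minus Grow, pairs within the proximal end had 0.112 ± 0.136 and those within the distal end -0.224 ± 0.267. With the hairpin these values were 0.0336 ± 0.121 and -0.327 ± 0.237.

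The pattern of the RAS differences over the chromosome was set side by side with and without the hairpin, in differences that have no map in common. Blocks of 5 by 5 bins were used for distal pairs, and over all 4027 the slope was 0.791 and r was 0.817, which describes blocks that share bins and depth. Over the 285 blocks between the deserts the slope was 0.785, and over the 564 blocks between the 2 ends it was 0.4997. The slope depended on the size of the block, with 0.457 over single pairs.

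Pairs of the desert type exist on other chromosomes, so the same measure was taken there. Bins were used that were B in the Grow map and had under 37% GC. Their pairs 8 to 42 Mb apart were averaged on the 16 chromosomes with at least 500 such pairs. The Grow map is also part of OIS minus Grow and of Grow-shA1 minus Grow. The part of this choice of bins in those differences was not tested. Chromosome 13 had 1.32 in Grow, 1.03 in Grow-shA1, 1.63 in OIS and 1.59 in OIS-shA1 (8485 pairs). Its OIS minus Grow difference of 0.315 was 9th from the top of 16, next to the median of 0.316. The comparisons with the hairpin placed it elsewhere. Grow-shA1 minus Grow was below 0 on all 16 chromosomes, with a median of -0.216, and -0.282 on chromosome 13 was the 2nd lowest value. OIS-shA1 minus OIS was below 0 on all 16 chromosomes, with a median of -0.240, and at -0.0445 chromosome 13 was nearest to 0 but for chromosome 9 (-0.0259). The next nearest, chromosomes 4 and 18, had -0.166 each. RAS with the hairpin gave 0.552 on chromosome 13, the highest of the 16 values, whose median was 0.285. Compartment strength is the mean of A-A and B-B scores of distal pairs minus that of A-B, with A and B called on Grow. It was 0.801 in Grow, 0.799 in Grow-shA1, 0.970 in OIS and 0.944 in OIS-shA1 on chromosome 13. Its differences of 0.168 in OIS minus Grow and of 0.146 with the hairpin stood beside medians of 0.0817 and -0.00888 over 23 chromosomes. Chromosome 4 had larger differences, 0.198 and 0.151, and chromosome 18 followed with 0.160 and 0.125. On chromosome 13 the parts of OIS minus Grow were 0.107 for A-A, -0.0500 for B-B and -0.140 for A-B. B-B was below 0 in this comparison on 22 of the 23 chromosomes. With the hairpin the parts on chromosome 13 were 0.107, 0.0551 and -0.0644. Chromosomes are not replicates of a condition, and no test of these positions was possible.

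**Figure D4:**
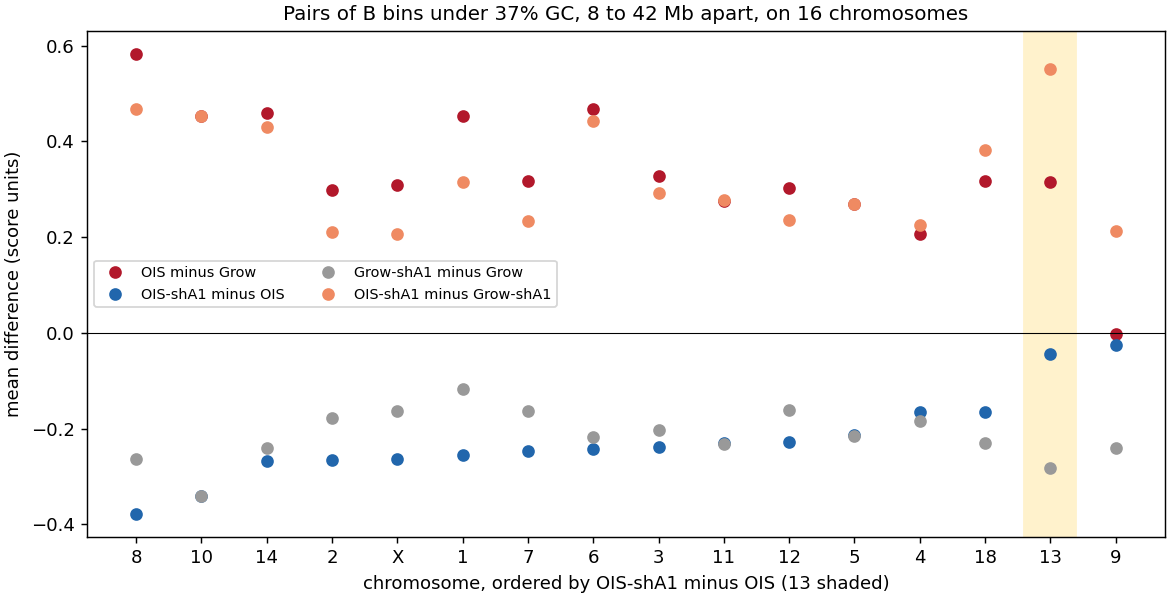
Mean difference of score (vertical axis, score units) for pairs of bins with under 37% GC, B in the Grow map, that lie 8 to 42 Mb apart. There is 1 column per chromosome in the order of OIS-shA1 minus OIS and 1 point per comparison. Chromosome 13, shaded, has OIS-shA1 minus OIS at -0.0445 and OIS-shA1 minus Grow-shA1 at 0.552.

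Compartments were read from the first principal component of the correlation matrix of each map, in which positive bins were called A and negative bins B. On chromosome 13 this component held 43.96% of the variance in Grow, 41.5% in Grow-shA1, 36.0% in OIS and 36.7% in OIS-shA1. The median compartment score in Grow was -0.876 in the first desert and -0.856 in the second, against 0.226 in the proximal and 0.0248 in the distal end. In OIS these medians were -0.801, -0.812, 0.466 and 0.287. At the desert edges, the bins at 53 Mb had Grow scores of 0.140 inside and 0.154 outside, and those at 80 Mb -0.278 inside and -0.497 outside. At 72 Mb the scores were -0.787 inside and -0.0433 outside, and at 95 Mb 0.666 inside and -0.338 outside. Which edges had a change of sign differed between maps. In Grow it was the edge at 95 Mb, where OIS had 0.692 inside and 0.460 outside and OIS-shA1 0.659 and 0.236. Grow-shA1 also had a change at 95 Mb, with 0.654 inside and -0.369 outside. It had others, with 0.248 inside and -0.00919 outside at 53 Mb, and -0.734 and 0.0988 at 72 Mb. Both RAS maps had a change at 80 Mb. There OIS had 0.101 inside and -0.274 outside, and OIS-shA1 0.170 and -0.257.

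Bins that were B without RAS and A with it lay mostly in the ends. In OIS minus Grow 51 of the 478 kept bins went from B to A, with 22 in the proximal and 18 in the distal end, 5 in the first desert and 2 in the second. Over all kept bins of 23 chromosomes the share was 9.49%. From A to B went 5 bins, 4 of them in the first desert, and the share over all bins was 0.678%. With the hairpin, OIS-shA1 minus Grow-shA1, 37 bins became A (8.03% of all bins did) and 3 became B (1.13%). In OIS-shA1 minus OIS 3 bins became A (1.54% of all bins) and 24 became B (3.14%), 6 of them in the deserts. In Grow-shA1 minus Grow 5 went from B to A (1.82%) and 14 the other way (1.5%). Bins with a score near 0 make up part of these counts. Where a score of at least 0.2 SD from 0 was asked for in both maps, 23 bins went from B to A in OIS minus Grow and 0 the other way.

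**Figure D5:**
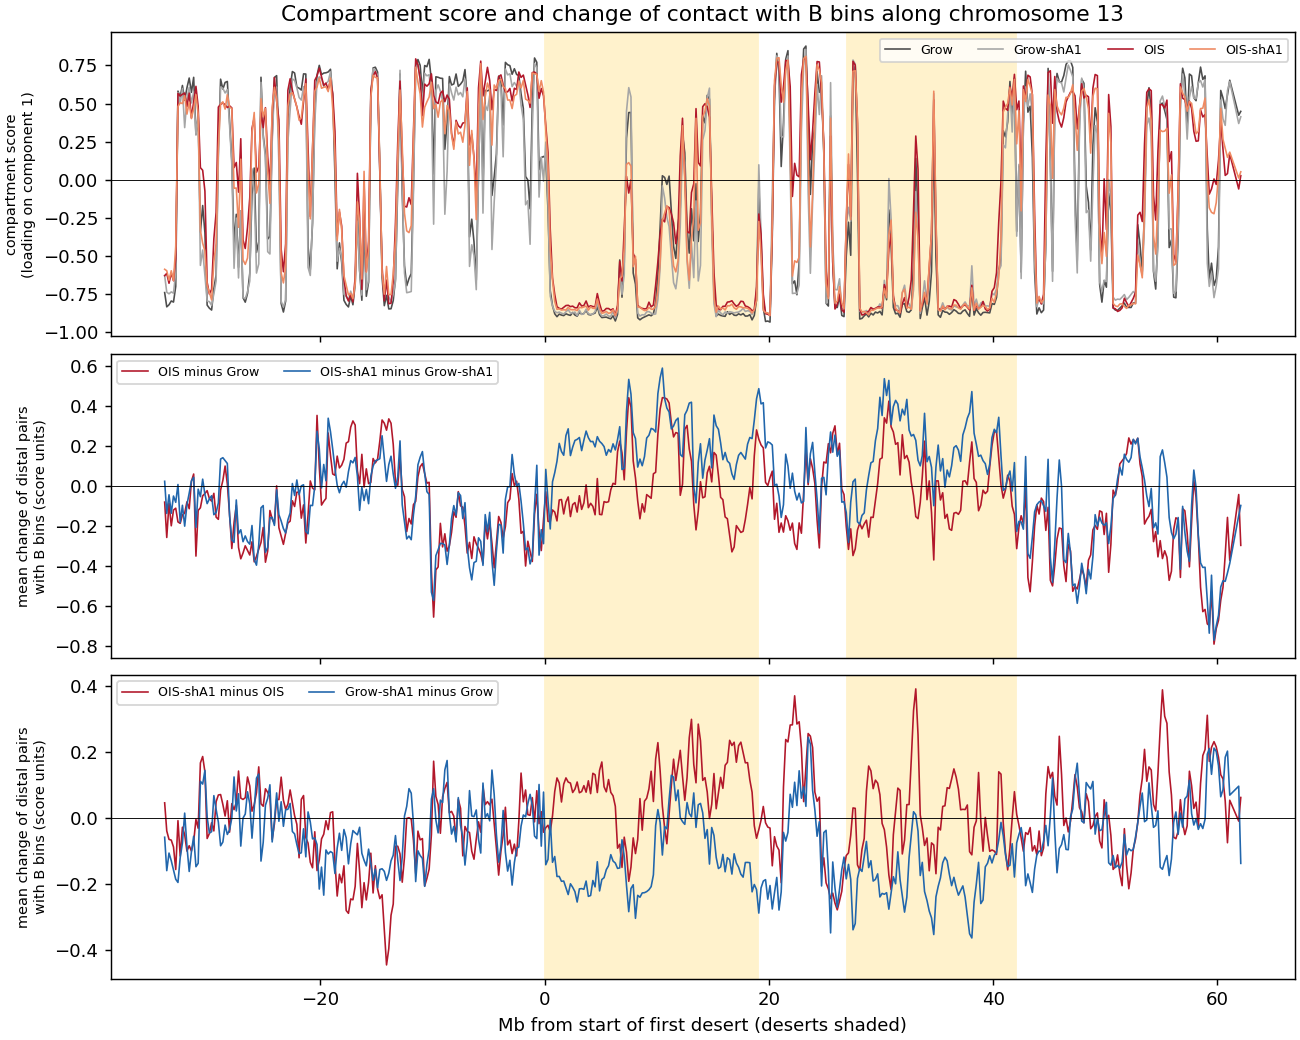
Compartment score in the 4 maps (top, loading on the first component) and mean change of each bin's distal pairs with B bins (middle and bottom, score units) along chromosome 13, as Mb from the start of the first desert, with 1 line per map or comparison and the deserts shaded. In Grow, 57 of 95 bins of the first desert and 48 of 75 of the second score under -0.8, and the first desert has a broad stretch of higher scores inside it. The middle panel is above 0 with the hairpin in 91 of 95 bins of the first desert.

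For single bins, the mean change of the distal pairs with B bins of the Grow map was used, and over 0.2 or under -0.2 score units was called. In OIS minus Grow 17 of the 95 bins of the first desert and 13 of the 75 of the second were called higher, against 4.37% of the 13565 bins with a value, and 7 and 10 were called lower, against 26.4%. This is the contrast by which the chromosome was chosen, and nothing is read from these counts. In the distal end 59 of 98 bins were called lower. In OIS-shA1 minus OIS 11 and 3 desert bins were called higher (3.32% of all bins) and 0 and 1 lower (9.05%). In Grow-shA1 minus Grow none was called higher (0.45% of all bins), and 27 of 95 and 30 of 75 were called lower (4.23%). In OIS-shA1 minus Grow-shA1 52 of 95 and 33 of 75 were called higher (5.98% of all bins) and 1 in each desert lower (23.3%).

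Across the 478 bins the change with B bins was related to GC content with Pearson's r = -0.516 (rho = -0.481) in OIS minus Grow, -0.00643 (-0.0959) in OIS-shA1 minus OIS, 0.508 (0.495) in Grow-shA1 minus Grow and -0.701 (-0.725) in OIS-shA1 minus Grow-shA1. Bins share maps and neighbours. In OIS-shA1 minus OIS the value near 0 covered opposite relations, with r = 0.548 over the 170 bins of the proximal end and r = -0.546 over the 95 bins of the first desert.

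The first desert was not uniform. Its 57 bins with a Grow score under -0.8 met the 48 such bins of the second desert at 2.15 in Grow, 1.64 in Grow-shA1, 2.55 in OIS and 2.35 in OIS-shA1 (2736 pairs). Its 25 bins with scores from -0.8 to 0 met the same partners at 0.516, 0.432, 0.868 and 0.907 in the same order of maps. Its 13 A bins had -0.135, -0.289, 0.316 and 0.159. All these classes were higher with RAS, by 0.399, 0.352 and 0.451 without and by 0.709, 0.475 and 0.448 with the hairpin. In the second desert the 11 A bins differed from this: their contact with the strongly B bins of the first desert was -0.337 in Grow and -0.809 in OIS, and -0.521 in Grow-shA1 and -0.557 in OIS-shA1. The 16 bins of the second desert with scores from -0.8 to 0 met the same partners at 0.861 in Grow, 0.495 in Grow-shA1, 0.879 in OIS and 0.939 in OIS-shA1. Their difference was 0.0177 without and 0.445 with the hairpin. The score classes were cut on the Grow map, which is part of OIS minus Grow.

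The A bins of the deserts fell into 10 runs, 6 in the first and 4 in the second. The run at chr13:60197891-60797552 (3 bins) lies over DIAPH3, which encodes a formin that builds actin filaments. Its pairs with B bins of the second desert had 0.138 in Grow, -0.227 in Grow-shA1, 0.614 in OIS and 0.313 in OIS-shA1. With A bins of both ends it had 0.345, 0.386, -0.106 and 0.0753. Its score was higher with the A bins of the ends in both growing maps, and higher with the other desert in both RAS maps. Its middle bin had compartment scores of 0.441, 0.604, -0.0865 and 0.113 and was the only bin of the first desert that went from B to A in OIS-shA1 minus OIS.

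The run at chr13:63399966-63799956 has no protein-coding gene over it and had the largest OIS minus Grow difference of the 10 runs with B bins of the other desert. Its 2 bins met the B bins of the second desert at 0.298 in Grow, 0.0107 in Grow-shA1, 1.43 in OIS and 1.06 in OIS-shA1. Its first bin, whose edge and middle are shown above, had a mean score with all B bins of 0.0636, -0.0481, 0.504 and 0.540 over 264 pairs. The change of 0.440 (SD over pairs 0.812) in OIS minus Grow ranked above 99.97% of the 11707 bins with at least 50% of their distal pairs listed, and was part of why the chromosome was chosen. The Grow score of 0.0269 of this bin was just on the A side, and in OIS it was -0.258. The next bin with an A score, chr13:64000657-64200555, had 0.300, 0.132, 1.30 and 0.988 with the B bins of the second desert, the same order of maps.

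PCDH9, a protocadherin of neural cell adhesion, covers the run of 4 A bins at chr13:66999391-67801196. This run met B bins of its own desert at -0.384 in Grow, -0.612 in Grow-shA1, -0.830 in OIS and -0.484 in OIS-shA1, so OIS was the lowest. Its A scores were kept in every map. 3 bins just before it, at chr13:66399754-66999390, went from B to A in OIS, and 2 of these were B again in OIS-shA1. GPC6, a glypican (a cell-surface heparan sulphate proteoglycan), covers the 6 A bins at the far edge of the second desert, chr13:93802677-94999166. They had -0.255, -0.490, -0.226 and -0.249 with B bins of the first desert and 0.0880, 0.00392, 0.274 and 0.217 with A bins of the ends. SPRY2, an inhibitor of receptor tyrosine kinase and RAS signalling, lies in a run of 3 A bins at chr13:80399711-81001853. Contact of this run with B bins of the first desert was -0.268 in Grow and from -0.709 to -0.639 in the other 3 maps.

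In the second desert the bin chr13:86000701-86200621, next to the neural receptor gene SLITRK6, had the largest change in OIS-shA1 minus OIS. Its mean score with B bins was 0.254 in Grow, 0.264 in Grow-shA1, 0.100 in OIS and 0.491 in OIS-shA1 (257 pairs). The difference in OIS with the hairpin was 0.391 (SD over pairs 0.746), and its compartment score was 0.287 in OIS and -0.213 in OIS-shA1. The bin of SLITRK6 had scores of -0.231, -0.357, 0.0692 and -0.389. The bin at chr13:83599760-83799305, whose sequence is shown above, met the first desert at 0.515 in Grow, 0.0419 in Grow-shA1, 1.35 in OIS and 1.01 in OIS-shA1. The largest losses of contact in OIS minus Grow among desert bins were at chr13:87609256-87799969 (0.303 to -0.0676) and chr13:80399711-80601655 (-0.318 to -0.667), which are A bins with no protein-coding gene over them. The third was a strongly B bin, chr13:69601952-69802198, which went from 1.34 to 1.01.

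The list of neural adhesion and patterning is loosely named and also holds DIAPH3, OLFM4 and SPRY2. Its 15 genes lie in 15 bins, 3 of which were A in Grow and in both shA1 maps and 4 in OIS. In OIS minus Grow 2 of these bins were called higher and 2 lower in contact with B bins, with a median of -0.0709, where 4.37% and 26.4% of all bins were. In OIS-shA1 minus Grow-shA1 4 were called higher and 1 lower (5.98% and 23.3% of all bins), with a median of 0.128, beside a median of -0.0654 over all bins. Over all bins of the first and the second desert the medians were 0.212 and 0.150. Contact with the other desert went both ways within the list. The bin of SLITRK1 met the first desert at 1.09 in Grow, 0.823 in Grow-shA1, 1.77 in OIS and 1.77 in OIS-shA1. That of KLHL1, a kelch protein gene of neurons, met the second desert at 1.82, 1.45, 1.93 and 2.01. Its change with all B bins in OIS minus Grow was -0.227, a call of lower. That of PCDH17, a protocadherin gene, met the second desert at 1.68, 1.16, 1.98 and 1.78. These bins were higher in OIS than in Grow with the other desert, and others of the list were lower. PCDH8, another protocadherin gene, had 0.434 in Grow, 0.363 in Grow-shA1, 0.0846 in OIS and -0.00789 in OIS-shA1 with the second desert. OLFM4, which encodes a secreted olfactomedin, had 0.716, 0.424, 0.490 and 0.339 with it. The bin of SPRY2 met the first desert at 0.197, -0.0404, -0.0843 and -0.226. Of the 28 protein-coding genes that start in the deserts, in 21 bins, 4 bins were A in Grow and 7 in OIS.

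The 13 genes of cell cycle, repair and signalling, lie in the ends apart from CKAP2. Their bins were A in 8 of 13 cases in Grow and Grow-shA1, and in 13 of 13 in OIS and OIS-shA1. Over all kept bins of the chromosome, A bins numbered 192 in Grow, 183 in Grow-shA1, 238 in OIS and 217 in OIS-shA1. In OIS minus Grow 7 of the 13 bins were called lower in contact with B bins (26.4% of all bins were), with a median of -0.255 beside -0.0873 over all bins. With the hairpin 7 were called lower (23.3% of all bins), with a median of -0.203 beside -0.0654. The ends, where these genes lie, had high shares as a whole. In OIS minus Grow 32.4% of bins were called lower in the proximal and 60.2% in the distal end. With the hairpin 30% and 50% were. Medians of the proximal and distal end were -0.113 and -0.240 without the hairpin, and -0.0920 and -0.199 with it. The bin of TNFSF11, which encodes the bone cytokine RANKL, had the largest change of these, -0.656, and met the first desert at -0.379 in Grow, -0.187 in Grow-shA1, -1.23 in OIS and -0.933 in OIS-shA1. The bin of LIG4, a DNA ligase of end joining, met the second desert at 1.03, 0.910, 0.192 and 0.402, and its compartment score was -0.393, -0.322, 0.185 and 0.0323. RB1, the retinoblastoma gene, started in an A bin of every map with scores from 0.651 to 0.680, and its bin met the first desert at -0.724, -0.820, -1.20 and -1.24.

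The matrix and fibroblast genes lie in 7 bins, of which that of GAS6 was not kept and has no score. Of the other 6 bins 5 were A in each map. The bin of POSTN, a secreted matrix protein, met the second desert at 0.0130 in Grow, -0.139 in Grow-shA1, 0.372 in OIS and -0.00957 in OIS-shA1. That of FREM2, a basement membrane protein, was a B bin and did so at 0.639, 0.339, 1.08 and 0.517. Both were highest in OIS, as was that of STARD13 (0.0468, -0.113, 0.355 and 0.0934). These lie in the proximal end, whose pairs with the second desert had an OIS minus Grow difference of -0.0758 ± 0.248 as a whole. The other scored bins of the list were lowest in OIS. They lie in the distal end, where that difference was -0.543 ± 0.321 as a whole. That of EFNB2 met the second desert at 0.0587 in Grow and -0.278 in OIS, and that of ITGBL1 at 0.0670 and -0.423. The bin of COL4A1 and COL4A2 had -0.499 and -0.573. In contact with all B bins 1 of the 6 bins was called higher in OIS minus Grow and 0 lower (4.37% and 26.4% of all bins). Of the 7 bins of the genes between the deserts 5 were A in each map. The bin of KLF5, a zinc-finger factor, met the first desert at -0.954, -1.18, -1.13 and -1.15, and that of POU4F1, a neural factor in a B bin, at 0.532, 0.280, 0.811 and 0.507.

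For each comparison, the 896 distal pairs whose score increased most, 1% of all, were taken as a network of bins. In OIS minus Grow 42.9% of these joined the deserts to each other, where 7.84% of all distal pairs do, and in OIS-shA1 minus Grow-shA1 the share was also 42.9%. Pairs of the second desert with the distal end made up 0.446% and 0.781% of them, against 6.79% of all distal pairs. In OIS-shA1 minus OIS the desert pair took 6.25%, the proximal end with the first desert 20.9% (14.3% of all distal pairs) and the second desert with the distal end 15.8%. The k-core of a network is what remains when every bin must be joined to at least k others. In OIS minus Grow the innermost core (k = 9) held 26 bins, 12 in each desert and 2 between them, none in the ends. Their GC content averaged 34.5%, against 38.5% over the kept bins, and 2 protein-coding genes start in them. With the hairpin the innermost core (k = 7) had 38 bins, 20 in the first desert and 16 in the second. In OIS-shA1 minus OIS it reached k = 4 with 8 bins, 6 of them in the second desert, and in Grow-shA1 minus Grow k = 3 with 251 bins in all 5 segments.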

How the data were processed

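Per the labels and the study's methods, the authors processed Hi-C reads of 2 Grow-shA1 and 2 OIS-shA1 samples with HiC-Pro (build hg19), dropped invalid and duplicate pairs, balanced the contacts by iterative correction and corrected them for distance. The deposited score of each pair of bins is the unit used here, with replicates pooled. Bin edges lay on HindIII cuts of GRCh37 for 14406 of 14420 inner edges. GC content, HindIII sites, A/T runs and sequences were read from GRCh37, and genes from GENCODE v44 lifted to GRCh37, each placed in the bin of its start. Means, compartment scores, k-cores and slopes were computed in Python 3.11.15 with numpy 2.4.6, pandas 2.3.3 and networkx 3.6.1, and their code was tested on simulated data. Compartment scores were oriented by protein-coding genes, with unlisted pairs at 0. Bin changes needed at least 10 pairs. Named were the bins of all protein-coding genes starting in the deserts, of 4 gene lists, and of the 3 largest rises and falls of distal contact with B bins among desert bins in OIS minus Grow and in OIS-shA1 minus OIS. Others, such as runs of A bins, were chosen after their values were seen. The members and lists were chosen with earlier results of these data known. No test was possible with 1 map per condition. Alternatives changed the treatment of values, distances, edges, bins, blocks and networks. Chromosome Y was not used.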

Additional observations from a re-analysis of the deposited data

Results flagged for a closer look

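The RAS difference had opposite signs without and with the hairpin in 4 classes of pairs, by more than the SD over bins. Distal pairs within the first desert had -0.0459 in OIS minus Grow and 0.424 in OIS-shA1 minus Grow-shA1, which differ by 0.470. Distal pairs within the second desert had -0.0838 and 0.374, which differ by 0.458. Local pairs of the first desert had -0.230 and 0.0306, which differ by 0.261. Local pairs of the second desert with the distal end, 51 pairs, had 0.172 and -0.0758, which differ by -0.248. Centring each map on the chromosome's mean by distance turned the OIS minus Grow values of distal pairs within the first and second desert to 0.0553 and 0.0200, so that the signs were no longer opposite there. The classes of local pairs were not recomputed under the alternatives. With 1 map per condition these differences between the 2 RAS effects were not tested.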

How the results depend on the processing

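Of the 40 segment differences, 30 kept their sign under all 9 alternatives. The SD over bins was the yardstick in place of replicates, and 358 of 360 values lay within it of the value given. The sign changed in 18, of which 16 lay within it. The desert pair in OIS minus Grow ranged from 0.215 to 0.418, and with the hairpin from 0.530 to 0.656. It changed sign once, in OIS-shA1 minus OIS, at 0.00238 when scores were divided by the SD at the same distance. Centring each map on the chromosome's mean by distance gave opposite signs for OIS minus Grow within the first (0.0553) and second desert (0.0200), and for the small differences between deserts and ends (0.0774), among ends (0.00575) and between the 2 ends (0.00823) in Grow-shA1 minus Grow, and among ends in OIS-shA1 minus Grow-shA1 (-0.00745). OIS minus Grow within the second desert was also above 0 over 5 Mb (0.0939) and with the desert edges moved inward by 1 Mb (0.00213). The desert-end difference in Grow-shA1 minus Grow, near 0, changed sign with unlisted pairs as 0 (0.0367), at 2 to 50 Mb (0.0127), with moved edges (0.00659) and with narrower ends (0.0201). The end-end difference in OIS-shA1 minus Grow-shA1 did so at 2 to 50 Mb (-0.0408) and with narrower ends (-0.126). Narrower ends also turned the end-end difference without the hairpin (-0.0703), and that of the 2 ends with each other both without (-0.0275) and with it (-0.0156). The median bin change of the second desert in OIS-shA1 minus OIS became 0.00108 with B bins of Grow-shA1, 0.0146 with all bins and 0.0264 with SD scaling, that of the distal end -0.00119 with all bins, and that of the second desert in OIS minus Grow 0.0130 over 5 Mb.

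Asking for scores at least 0.2 SD from 0 left 23 and 0 bins (B to A, A to B) in OIS minus Grow, 0 and 5 in OIS-shA1 minus OIS, 0 and 2 in Grow-shA1 minus Grow and 20 and 0 in OIS-shA1 minus Grow-shA1. B to A in OIS-shA1 minus OIS was 5 with SD scaling and 5 with distal pairs alone. The slope was 0.457 over single pairs. The largest k was 16 in OIS minus Grow, 9 in OIS-shA1 minus OIS, 5 in Grow-shA1 minus Grow and 15 in OIS-shA1 minus Grow-shA1 with 3 by 3 averaging, and 5 and 11 in the last 2 with 2% of pairs. Apart from what each alternative changes by construction, the cause of these shifts was not tested. No paired analysis was possible because the 2 samples of each shA1 group are pooled in 1 map. Reads per pair are unknown, so no counting error could be given.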
